A study of Mus musculus with 4 samples.

Results

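Molecular chaperones and their co-chaperones were examined as a group in RNA sequencing libraries of sorted striatal neurons from the BACHD mouse model of Huntington's disease. The group holds every protein-coding gene whose symbol starts with Hsp or Dnaj, the genes Bag1 to Bag6, Cct2 to Cct8 and Tcp1, without the endoplasmic reticulum genes Hspa5, Hsp90b1, Dnajb9, Dnajb11 and Dnajc3 and the matrix gene Hspg2. In all 84 protein-coding genes matched, and 71 of them reached 1 CPM (counts per library total, on a common scale) in at least 2 of the 4 libraries, out of 13400 genes that did so. The other 13 stayed below that level and were not tested. They were Cct6b, Dnajb7, Dnajb8, Dnajb13, Dnajc22, Dnajc5b, Dnajc5g, Hspb1, Hspb2, Hspb3, Hspb7, Hspb8 and Hspb9. The members fell into 2 HSP90, 9 HSP70, 3 HSP110, 2 HSP60 and HSP10, 2 small heat shock protein, 4 DNAJA, 8 DNAJB, 24 DNAJC, 6 BAG and 9 CCT genes, plus Hspbp1 and Hspbap1. The group was named for the cytosol, but the products of 10 members are known from mitochondria, those of 8 from the endoplasmic reticulum and those of 4 from the nucleus or the splicing machinery.

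All mice were FVB/NJ males aged 5 to 6 months. The BACHD mice carry full-length human mutant huntingtin with 97 glutamines on a hemizygous bacterial artificial chromosome (BAC) under its own huntingtin control regions, and wild-type (WT) littermates lack it. Every animal also carried a BAC reporter with EGFP, driven from Drd1 in the D1 libraries and from Drd2 in the D2 libraries, so that cell type and reporter line cannot be told apart. GFP-positive cells of the striatum, at 150000 per animal, were pooled from 4 animals for each library, and each of the 4 groups was 1 library. Where 4 values of a gene follow each other, they stand for D1 WT, D1 BACHD, D2 WT, then D2 BACHD. No spread between pools of a group was measured, and the 95% intervals given for ratios cover counting error only.

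Chaperones bind unfolded or partly folded proteins and keep them from aggregating. HSP70 proteins work in cycles driven by ATP, in which J-domain proteins (DNAJA, DNAJB and DNAJC) deliver clients and start ATP hydrolysis. HSP110 proteins and most BAG proteins release the nucleotide. HSP90 completes the folding of kinases and steroid receptors, and the CCT ring (TRiC) encloses actin, tubulin and other clients. In Huntington's disease models, raised levels of several of these proteins are known to reduce aggregation of expanded polyglutamine, and many of their genes are targets of heat shock factor 1.

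The 4 libraries held 41325600 to 44523571 estimated counts, and 5.87% to 9.34% of these came from mitochondrially encoded genes, lowest in D1 WT. Direct-pathway markers (8 genes) summed to 3227 and 3093 CPM in the D1 libraries and to 149 and 118 CPM in the D2 libraries (WT, then BACHD). Indirect-pathway markers (5 genes) summed to 180 and 165 CPM in the D1 and to 12785 and 12077 CPM in the D2 libraries. General medium spiny neuron markers (7 genes) summed to 11434, 10388, 12280 and 11000 CPM in the order given above. Both BACHD sums thus lay below both WT sums. In D1 cells 6 of the 7 were lower in BACHD (median log2 ratio -0.10) and in D2 cells 7 were (median -0.14). Of the marker lists of other cells, cortical glutamatergic neurons (6 genes) summed to 28.3, 139.6, 2.96 and 5.13 CPM in that order, highest in D1 BACHD. Oligodendrocyte markers (8 genes) lay between 322 and 394 CPM and astrocyte markers (7 genes) between 150.5 and 205 CPM. Microglial markers (7 genes) reached at most 25.0 CPM, endothelial and mural markers (7 genes) 10.6 CPM and ependymal markers (7 genes) 4.69 CPM. No listed marker was at 0 in all 4 libraries. The part of these cells in the ratios of the chaperone genes was not tested.

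The members took 8207, 7900, 8119 and 7503 CPM, which is 0.821%, 0.790%, 0.812% and 0.750% of all counts. The 2 BACHD sums lay below both WT sums, as did those of the medium spiny neuron markers. The 5 members with the most counts supplied between 41.2% and 42.5% of the group's CPM in each library.

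Levels between genes were compared as FPKM, the authors' length-scaled values, averaged over the 4 libraries. Hsp90ab1, the constitutive cytosolic HSP90, stood highest at 526 FPKM, followed by Dnajc7 (448), a co-chaperone that binds both HSP70 and HSP90, and Hspa8 (426), the constitutive HSP70 also called Hsc70. Dnajc7 and Hspa8 differed by a factor of 1.05 and their ranges over the libraries overlapped. Hsp90aa1, the stress-responsive HSP90, was at 199 FPKM, so that Hsp90ab1 was 2.64 times as high. Bag6, which guards newly made membrane proteins in the cytosol, reached 128 FPKM, Dnajb5 110, Cct3 105.5 and Hsph1, an HSP110 nucleotide exchange factor, 94.7.

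Among the members with low levels were Hspa1a, Hspa1b and Bag3, while other heat shock factor targets such as Hsp90aa1 and Hsph1 stood high. Genes not listed as such targets, among them Cct8l1 and Hspa12b, were low too. Hspa1a and Hspa1b, the inducible HSP70 pair, were at 0.509 and 3.03 FPKM, and Hspa8 was 120.5 times their sum. Bag3, which directs HSP70 clients to autophagy, was the lowest member at 0.476 FPKM, and Bag6 was 269 times as high. Among the J proteins that suppress polyglutamine aggregation, Dnajb6 was at 59.3 FPKM, Dnajb1 at 25.1 and Dnajb2 at 6.73. Levels within the CCT ring, whose subunits assemble in equal numbers, ran from 17.3 FPKM for Cct6a to 105.5 FPKM for Cct3, a factor of 6.10. The small heat shock protein genes Hspb1 and Hspb8 did not reach the filter, at 0.0484 to 0.180 CPM for Hspb1 and 0.0480 to 0.160 CPM for Hspb8 over the 4 libraries. A count of 3 corresponded to between 0.0674 and 0.0726 CPM.

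**Figure D1:**
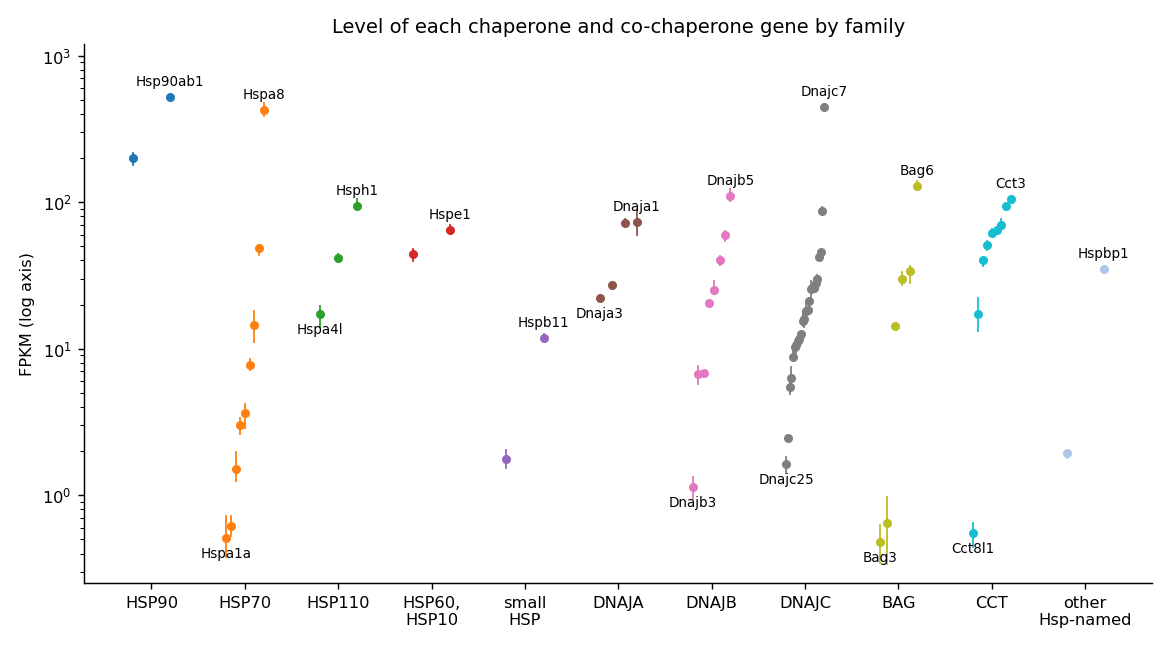
Mean FPKM of each of the 71 members (points, log axis) by family, with the range over the 4 libraries as a line. Hsp90ab1, Dnajc7 and Hspa8 stand at the top, and Bag3 and Hspa1a at the bottom.

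The effect of the BACHD transgene common to both cell types was tested in 1 additive fit of genotype and cell type (edgeR quasi-likelihood test, n = 2 pools of each genotype). None of the 71 members was called at an adjusted p under 0.05, where 0.440% of all genes tested were called. DESeq2 also called 0 members. At an unadjusted p under 0.05 edgeR gave 14 members (13.4% of all genes), of which 12 were lower and 2 higher in BACHD, and DESeq2 gave 5. The fitted change was below 0 in 49 of 71 members. The smallest adjusted p was that of Cct6a, a subunit of the CCT ring (log2 change -0.41 ± 0.07 SE, edgeR adjusted p = 0.0654).

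Within a cell type, where each genotype was 1 library, a gene was counted as past the ratio when BACHD and WT differed by a factor of at least 1.5 and the counting interval of the ratio excluded 1. In D1 cells 1 member was past it upward (Bag2), where 2.54% of all genes were, and 1 downward (Hspa1a), where 1.17% were. In D2 cells 2 members were past it upward (Bag2 and Hspa1l, against 1.39% of all genes) and 0 downward (1.15%). The 3 genes named were below 5 CPM in every library.

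Over the 71 members the BACHD to WT log2 ratio had a median of -0.04 in D1 and -0.06 in D2 cells, beside medians of 0.00 and 0.01 over all genes tested. In D1 cells 47 members were below 0 (49.5% of all genes) and 24 above, and in D2 cells 46 (47.4%) and 25. The counting interval lay wholly below 0 for 28 members in D1 (21.5% of all genes) and 26 in D2 cells (18.5%), and wholly above 0 for 8 in D1 (20.3%) and 9 in D2 (18.6%). Members lower in BACHD in both cell types numbered 34 (28.7% of all genes), and for 15 of them both intervals lay below 0 (8.87%). Higher in both were 12 members (31.8%), and 2 of them, Bag2 and Dnajc15, had both intervals above 0 (6.40%). Within a cell type, genotype and pool cannot be told apart.

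**Figure D2:**
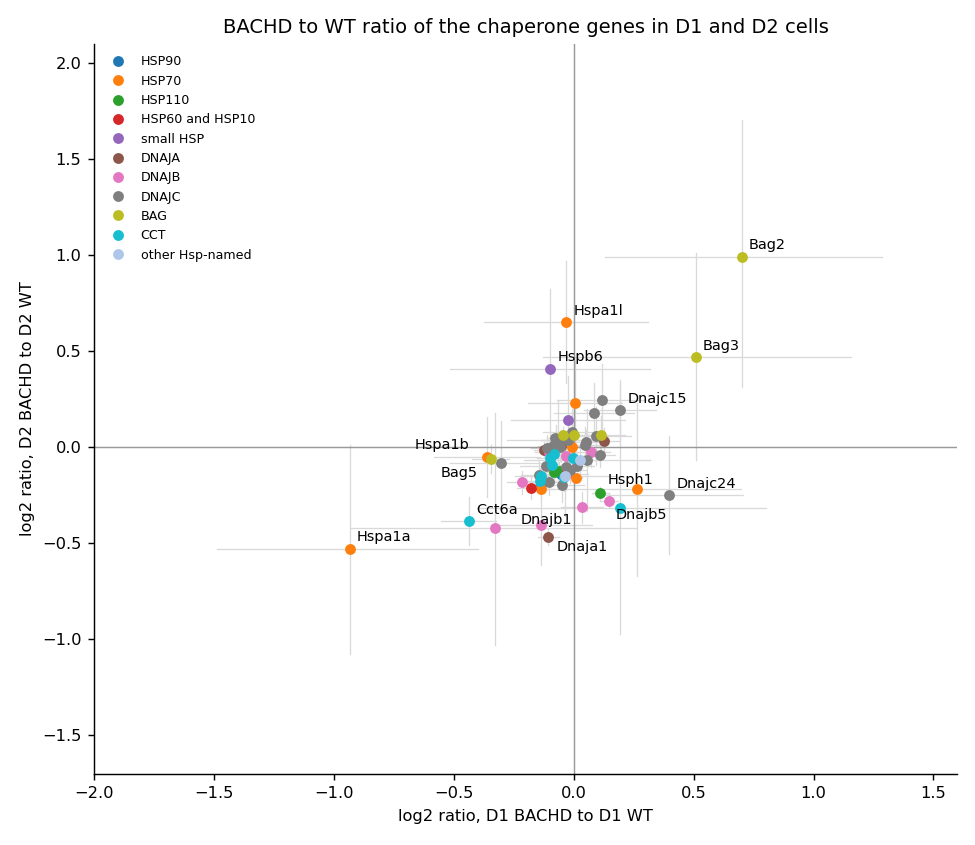
Log2 ratio of BACHD to WT in D1 cells (x axis) and D2 cells (y axis) for each of the 71 members, coloured by family, with 95% counting intervals as grey lines. Most members lie near the origin, and Bag2, Hspa1a, Bag3 and Hspa1l lie farthest from it.

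Both HSP90 genes were lower in BACHD in each cell type. Hsp90ab1 was at 1343, 1289, 1356 and 1234 CPM, so that both BACHD libraries lay below both WT libraries. The fitted log2 change by genotype was -0.10 ± 0.06 (SE, edgeR adjusted p = 0.513). Hsp90aa1 was at 615, 558, 583 and 511 CPM, again with both BACHD values below both WT values. Its change was -0.16 ± 0.05 (edgeR adjusted p = 0.242).

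Hspa8, which also strips clathrin from vesicles, was at 695, 697, 761 and 683 CPM. The D2 WT library stood above the other 3, which lay close together. BACHD against WT gave a log2 ratio of 0.01 in D1 cells (interval -0.01 to 0.03) and -0.16 in D2 cells (-0.18 to -0.14). The authors' FPKM of Hspa8 were 438, 409, 472 and 385, so that on that scale D1 BACHD lay below D1 WT. Hspa9, the mitochondrial HSP70, was at 138, 125, 132 and 114 CPM, with both BACHD libraries below both WT libraries (-0.18 ± 0.05, edgeR adjusted p = 0.206). Apart from Hspa1a, Hspa1b and Hspa1l, given below, the remaining HSP70 genes were Hspa2, Hspa12a, Hspa12b and Hspa13. Their edgeR adjusted p-values for genotype were 0.714, 0.914, 0.968 and 0.992.

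The inducible pair was low throughout. Hspa1a was at 2.09, 1.09, 1.64 and 1.14 CPM, and the WT libraries were higher in each cell type (log2 ratio -0.93, interval -1.49 to -0.40, in D1 and -0.53, -1.08 to 0.01, in D2). The change common to both cell types was -0.73 ± 0.24 (edgeR adjusted p = 0.255). Hspa1b was at 9.33, 7.24, 8.74 and 8.46 CPM, with D1 BACHD lowest. In the annotation 58.8% of the 50-base stretches of Hspa1a transcripts also occur in Hspa1b, so reads could be assigned to either. The sum of both genes, which does not depend on that split, was 476, 344, 462 and 421 counts, or 11.4, 8.32, 10.4 and 9.60 CPM. By this sum too D1 BACHD was lowest. Hspa1l, a testis-enriched HSP70 that lies beside Hspa1a, was at 3.55, 3.46, 3.10 and 4.88 CPM, highest in D2 BACHD (log2 ratio to D2 WT 0.65, interval 0.34 to 0.97). Its change by genotype was 0.32 ± 0.20 (edgeR adjusted p = 0.537), and 71.4% of its 50-base stretches occur in another gene's transcripts.

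In the HSP110 family, Hsph1 and Hspa4 act as nucleotide exchange factors of HSP70. Hsph1 was at 308, 331, 360 and 306 CPM. D1 BACHD stood above D1 WT (log2 ratio 0.11, interval 0.08 to 0.15) and D2 BACHD below D2 WT (-0.24, -0.27 to -0.21). Hspa4 was at 180, 171, 176 and 162 CPM (-0.09 ± 0.05, edgeR adjusted p = 0.448). Hspa4l was at 140.4, 132, 121 and 111 CPM (-0.11 ± 0.05, edgeR adjusted p = 0.388). Both of the last were lower in BACHD in each cell type, with both counting intervals below 0.

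Among the type A J proteins, Dnaja1, the main cytosolic partner of Hspa8 in this class, was at 213, 197, 239 and 173 CPM. The lowest and the highest library were both D2. The log2 ratio was -0.11 in D1 cells (interval -0.15 to -0.06) and -0.47 in D2 cells (-0.51 to -0.43), and the fitted change was -0.29 ± 0.08 (edgeR adjusted p = 0.207). Dnaja2 was at 217, 198.5, 200.4 and 198.7 CPM, and in these CPM 3 libraries lay close together with D1 WT above them. With the scaling used for the ratios, D2 against D1 gave a log2 ratio of -0.04 in WT and 0.06 in BACHD. Dnaja4 lay between 77.0 and 84.0 CPM, and 42.7% of its 50-base stretches occur in Wdr61.

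The 8 type B J proteins were all lower in D2 BACHD than in D2 WT (47.4% of all genes), with a median log2 ratio of -0.23. For 4 of them the counting interval lay below 0 (18.5% of all genes). In D1 cells 5 of the 8 were lower (49.5% of all genes) and the median was -0.07. The count in D2 cells was 8 of 8 also with total counts or FPKM as the scale. The TMM factors of the D2 libraries were nearly equal (0.976 and 0.978), so total counts could hardly change it. Dnajb1, the J protein partner of inducible HSP70, was at 51.3, 52.3, 62.9 and 50.7 CPM, with D2 WT above the other libraries. Dnajb5, the highest of the class, was at 258, 284, 309 and 255 CPM and again highest in D2 WT. Dnajb4 was at 104, 89.4, 103 and 90.9 CPM, so that both BACHD libraries lay below both WT libraries (-0.20 ± 0.05, edgeR adjusted p = 0.174). Dnajb6, which binds polyglutamine chains and blocks their nucleation, was at 107.5, 99.9, 112 and 110.1 CPM (-0.06 ± 0.05, edgeR adjusted p = 0.626). Dnajb2, a neuronal J protein that sorts clients to the proteasome, was at 9.48, 8.59, 9.97 and 7.55 CPM (-0.27 ± 0.12, edgeR adjusted p = 0.376).

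The 24 type C J proteins, which have varied tasks and mostly a J domain alone in common, had a median log2 ratio of -0.02 in D1 cells and 0.00 in D2 cells. They were lower in BACHD in 14 of 24 in D1 and in 12 of 24 in D2 cells. Dnajc7 was at 421, 397, 392 and 407 CPM, and its log2 ratio was -0.08 in D1 (interval -0.11 to -0.05) and 0.05 in D2 cells (0.02 to 0.08). Dnajc8, a splicing-associated protein, was at 117, 109.6, 109 and 110.0 CPM. Dnajc11, a mitochondrial protein of the cristae machinery, was at 87.2, 90.0, 87.0 and 88.8 CPM. Neither had an interval off 0 in both cell types. Dnajc15, a mitochondrial import regulator named after its values were seen, was at 16.5, 18.8, 14.5 and 16.6 CPM and higher in BACHD in both cell types (0.19 ± 0.08, edgeR adjusted p = 0.341).

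Most BAG proteins share a domain that binds the ATPase end of HSP70. Bag2, which inhibits the ubiquitin ligase CHIP, was higher in BACHD in both cell types, at 1.03, 1.67, 0.629 and 1.25 CPM. The log2 ratio was 0.70 (interval 0.13 to 1.29) in D1 and 0.99 (0.31 to 1.70) in D2 cells, and the fitted change was 0.83 ± 0.26 (edgeR adjusted p = 0.233). Bag3 was at 0.888, 1.26, 1.17 and 1.62 CPM, and its counting intervals included 0 in both cell types. Both genes had few counts, so their intervals are wide. Bag5 was at 75.7, 59.4, 74.1 and 71.2 CPM, with the D1 BACHD library apart from the other 3 (log2 ratio -0.35, interval -0.42 to -0.27, in D1 and -0.06, -0.13 to 0.01, in D2). Bag6 was at 206, 198.5, 198 and 207.5 CPM, below WT in D1 BACHD and above WT in D2 BACHD. Bag1, an HSP70 nucleotide exchange factor linked to the proteasome, was at 40.0, 43.1, 35.1 and 36.8 CPM (0.09 ± 0.06, edgeR adjusted p = 0.581).

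The 8 subunits of the CCT ring were all lower in BACHD than in WT in both cell types, where 28.7% of all genes were. The median log2 ratios were -0.10 in D1 and -0.12 in D2 cells. For 5 of the 8, Cct3, Cct5, Cct6a, Cct8 and Tcp1, both counting intervals lay below 0 (8.87% of all genes). On the TMM scale the lowest library was D2 BACHD for 6 subunits and D1 BACHD for 2, and the highest was D1 WT for 5 and D2 WT for 3. With total counts, as in the CPM printed here, these counts were 7, 1, 7 and 1. With total counts as the scale 8 of 8 were again lower in both cell types. The TMM factors of WT and BACHD were nearly equal (1.026 and 1.021 in D1, 0.976 and 0.978 in D2 cells). This scale could therefore hardly change the count. With FPKM 7 of 8 were lower in each cell type, all but Cct4 in D1 and all but Cct3 in D2 cells. No subunit was called by the genotype term. Cct6a was at 35.6, 26.2, 27.6 and 21.2 CPM, the widest relative range of the ring. With total counts as the scale its edgeR adjusted p by genotype was 0.0298, and at a threshold of 0.1 it was called on the main scale. DESeq2 and a filter of 10 CPM did not call it. The fits without the filter, with genotype as the only term and by limma on FPKM called at most 1 gene in all, so they could not decide. Its log2 change was below 0 in every fit, from -0.26 without D1 WT to -0.55 without D2 WT. GENCODE M21 lists Cct6a as a processed transcript while RefSeq lists it as protein-coding. Cct5 was at 89.7, 81.1, 86.9 and 77.1 CPM (-0.16 ± 0.05, edgeR adjusted p = 0.244), and Cct3 at 129, 117, 120.4 and 109 CPM (-0.14 ± 0.05, edgeR adjusted p = 0.261). Tcp1 was at 205.5, 192, 206 and 194 CPM, so that the difference between genotypes was the same size in both cell types (log2 ratio -0.09 in each). Cct2 differed least, and both of its counting intervals included 0. Its log2 ratio was -0.002 in D1 (interval -0.056 to 0.053) and -0.05 in D2 cells (-0.109 to 0.001).

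**Figure D3:**
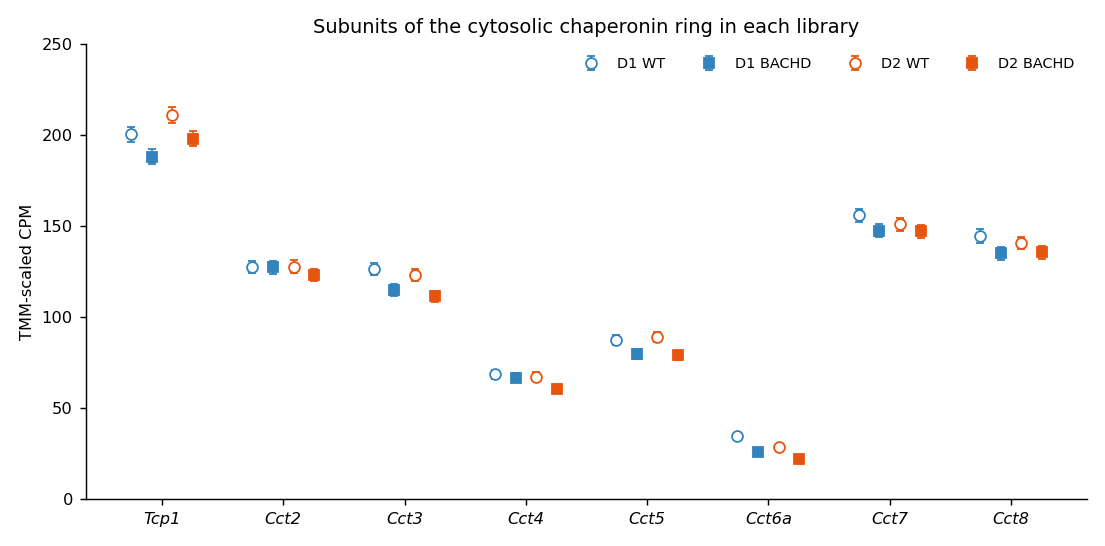
TMM-scaled CPM of the 8 CCT ring subunits in each library, with bars for the 95% counting error (normal approximation). Open circles are WT and filled squares BACHD, and in each cell type the BACHD point lies at or below the WT point for every subunit.

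The mitochondrial chaperonin genes Hspd1 (HSP60) and Hspe1 (HSP10) encode the chamber and its lid. Hspd1 was at 114, 101, 110.3 and 95.4 CPM, with both BACHD libraries below both WT libraries (-0.19 ± 0.05, edgeR adjusted p = 0.175). Hspe1 was at 48.8, 47.5, 55.2 and 50.2 CPM and highest in D2 WT (-0.09 ± 0.06, edgeR adjusted p = 0.576). Over all 10 mitochondrial members the median log2 ratio was -0.03 in D1 and 0.03 in D2 cells, with 7 and 3 members lower. Of the small heat shock proteins above the filter, Hspb6 lay between 2.02 and 2.69 CPM and Hspb11, a ciliary transport protein despite its name, between 7.01 and 7.75 CPM.

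Heat shock factor 1 binds inverted repeats of a GAA unit, and the sequences printed here are those of members with such letters near their start, whose values are given above. Windows came from RefSeq (GRCm38.p6), from 250 bases before to 50 after the annotated start, and were found for 58 of the 71 members, some with more than 1 start. A gene was counted when any of its windows matched. The motif searched was GAANNTTCNNGAA on both strands, which is 3 inverted units. It was found for 4 of the 58 members (6.9%), against 0.662% of 27025 genes with a window and 0.539% of the 9835 of those that were tested. The 4 genes were Hspd1 (in 1 of its 2 windows), Hspe1, Hsph1 and Dnajb6. A shorter form of 2 units, GAANNTTC or TTCNNGAA, which the longer one contains, was found for 17 of the 58 members (29.3%) and for 13.6% of tested genes with a window.

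Hspd1 and Hspe1 lie head to head on chromosome 1, and the windows that match share 285 bases, so that 1 pair of overlapping motifs serves as a match for both genes. The window of Hspe1 (chr1:55087898-55088197, plus strand, GRCm38.p6) is shown with the motif letters in capitals.
Hspe1: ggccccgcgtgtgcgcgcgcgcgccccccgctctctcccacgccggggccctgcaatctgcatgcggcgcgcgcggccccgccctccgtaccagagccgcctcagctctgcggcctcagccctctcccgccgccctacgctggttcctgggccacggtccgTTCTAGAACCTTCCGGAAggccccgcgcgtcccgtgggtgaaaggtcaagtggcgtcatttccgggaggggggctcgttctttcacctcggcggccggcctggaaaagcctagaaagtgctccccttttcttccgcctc
Hspd1 is read from the minus strand of the same interval (chr1:55087883-55088182), and the annotated genes overlap at this end, so without strand in the counting the reads there cannot be told apart.

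Dnajb6 and Hsph1 each have 2 RefSeq starts, and the motif position depends on the start used. For Dnajb6 (window chr5:29735648-29735947, plus strand) it is -46 from the start of this window and -127 from the other. By GENCODE M21 the gene starts at 29735688, which places the motif inside it. For Hsph1 (window chr5:149636266-149636565, minus strand) the position is 15, or 36 from the other start, inside the transcribed part. Both motifs are shown, for Dnajb6 with its flanks, to set them beside the pair above.
Dnajb6: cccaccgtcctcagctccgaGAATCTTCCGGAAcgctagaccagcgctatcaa
Hsph1: TTCTGGAAAGTTC

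The windows of Hspa1a (chr17:34972107-34972406, minus strand) and Hspa1b (chr17:34959189-34959488, minus strand) are shown since these genes are the inducible pair and cannot be fully separated by their transcripts. They differ at 4 of 300 positions and hold the form of 2 units (capitals) but no motif of 3 units as spelled above.
Hspa1a: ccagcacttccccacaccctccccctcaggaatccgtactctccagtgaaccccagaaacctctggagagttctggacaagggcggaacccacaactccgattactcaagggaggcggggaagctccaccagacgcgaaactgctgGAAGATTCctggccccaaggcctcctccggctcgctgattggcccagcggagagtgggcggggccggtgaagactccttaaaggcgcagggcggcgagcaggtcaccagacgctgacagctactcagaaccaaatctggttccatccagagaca
Hspa1b: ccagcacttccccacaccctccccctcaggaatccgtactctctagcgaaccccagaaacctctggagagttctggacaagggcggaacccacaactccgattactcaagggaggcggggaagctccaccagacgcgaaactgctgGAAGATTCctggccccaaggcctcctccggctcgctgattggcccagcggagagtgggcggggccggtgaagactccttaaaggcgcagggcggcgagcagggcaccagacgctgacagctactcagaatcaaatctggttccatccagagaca
A match to these letters is a description of the window and no measure of binding.

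Known heat shock factor targets among the listed genes numbered 14, of which 12 passed the filter. By the longer motif 3 of the 9 that have a window matched (33.3%) and by the shorter 7 of 9 (77.8%), against 2.04% and 20.4% of the 49 other members with a window. In D2 cells 11 of the 12 were lower in BACHD than in WT (median log2 ratio -0.18, 47.4% of all genes lower), the exception being Bag3. In D1 cells 8 of 12 were lower (median -0.07, 49.5% of all genes lower). For the same genes D2 WT stood above D1 WT in 8 of 12 (median 0.14) and D2 BACHD above D1 BACHD in 6 of 12 (median 0.01). With total counts or FPKM as the scale these counts were 7 and 4. The D2 WT library is part of both the D2 genotype and the WT cell type comparison, so these values are not separate evidence. On the TMM scale D2 WT was the highest library for 7 of the 12 (58.3%), namely Dnaja1, Dnajb1, Hsp90ab1, Hspa8, Hspd1, Hspe1 and Hsph1. It was the highest for 20.9% of all genes tested and for 26 of all 71 members (36.6%), these 12 included. Hspa1a, Hspa1b, Hspa4l and Hsp90aa1 were highest in D1 WT. With total counts as the scale, as in the CPM printed above, the count for D2 WT was 6, since Hspd1 was then highest in D1 WT. None of the 12 was called by the genotype term.

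Genes that respond rapidly to neuronal activity stood apart in the same library. The 22 immediate early genes listed (Fos, Egr1, Arc, Npas4 and others) summed to 2387, 2891, 3794 and 2624 CPM, with D2 WT highest. Over the 20 of them that were tested, the BACHD to WT log2 ratio had a median of 0.34 in D1 and -0.60 in D2 cells, and D2 WT was above D1 WT by a median of 0.70. Their part in the values of the heat shock factor targets was not tested. The gene of the factor itself, Hsf1, was at 72.2, 78.4, 65.9 and 75.0 CPM, higher in BACHD in both cell types (0.15 ± 0.05, edgeR adjusted p = 0.270).

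**Figure D4:**
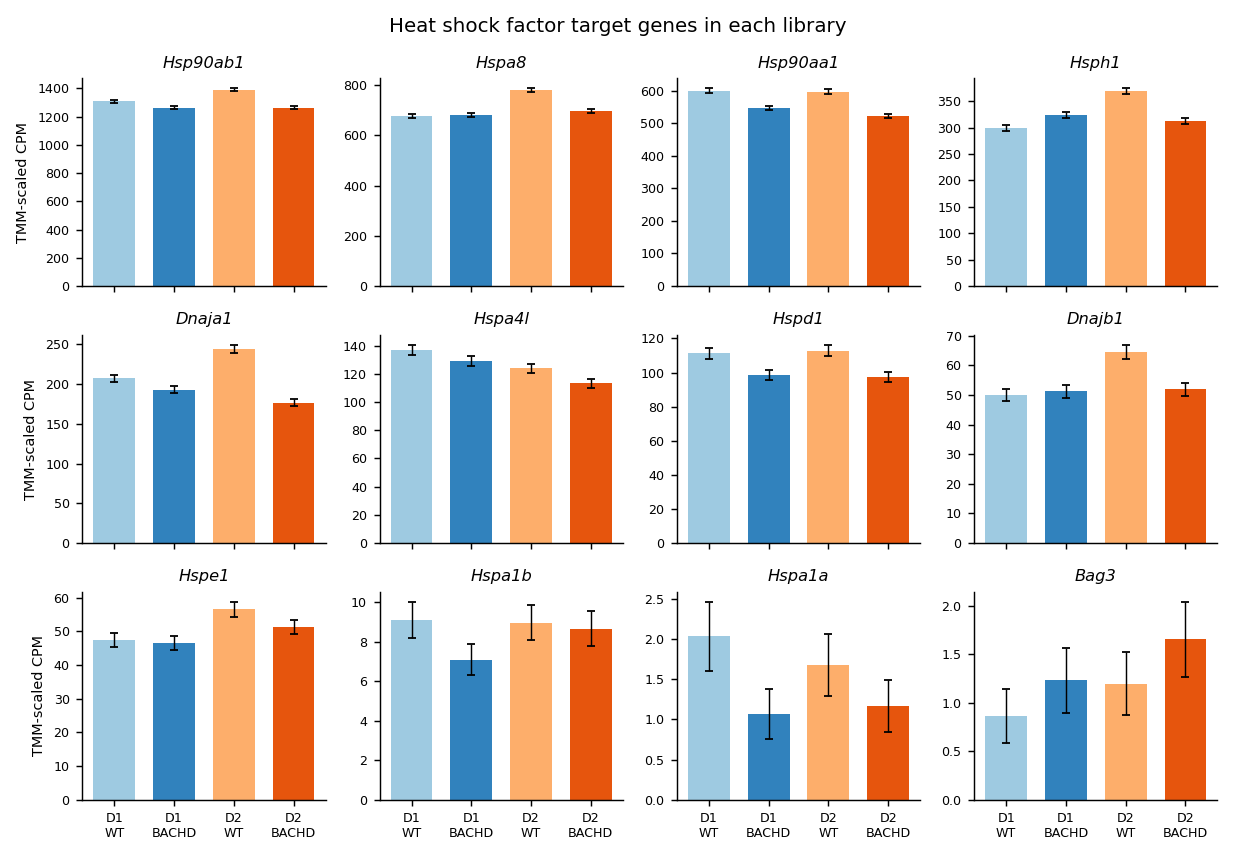
TMM-scaled CPM of the 12 heat shock factor targets above the filter in each library (bars), with error bars for the 95% counting error (normal approximation). D2 WT is the tallest bar for 7 of the 12 genes, and Hspa1a and Bag3 have few counts.

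The members whose ratio of BACHD to WT differed most between cell types, among those of at least 10 CPM, were Dnajb5 (D2 minus D1 log2 ratio -0.43), Dnaja1 (-0.36), Hsph1 (-0.35), Dnajb1 (-0.35) and Bag5 (0.28). This difference has no test, since it is the residual of the fit. For Dnajb5 and Hsph1 the counting intervals lay above 0 in D1 and below 0 in D2 cells, which 2.21% of all genes did. For Bag6 and Dnajc7 they lay below 0 in D1 and above 0 in D2 cells (2.46% of all genes).

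Genes whose products are known to suppress polyglutamine aggregation numbered 16 on the list used, and 15 passed the filter. In D2 cells all 15 were lower in BACHD (median log2 ratio -0.15), where 47.4% of all genes were. In D1 cells 12 were lower (median -0.10, 49.5% of all genes). With FPKM as the scale the count in D2 cells was 14. The list contains the 8 CCT subunits described above, and its other members are Dnajb1, Dnajb2, Dnajb6, Hspa1a, Hspa1b, Hspa8 and Hsph1. All of the latter except Dnajb2 and Dnajb6 are also among the heat shock factor targets. These counts are therefore not separate evidence from those of the CCT ring and the heat shock factor targets. None of the 15 was called by the genotype term, and the smallest adjusted p was that of Cct6a.

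The difference between D1 and D2 cells was tested in the same fit (edgeR, n = 2 pools of each cell type and reporter line). It called 4 of 71 members, where 17.0% of all genes were called. All 4 were lower in D2 cells (10.2% of all genes) and 0 were higher (6.81%). Hspa12a, an atypical HSP70 expressed in brain, was at 104, 98.0, 63.5 and 65.4 CPM, so that the D2 libraries lay below the D1 libraries with no overlap. Its D2 minus D1 log2 change was -0.58 ± 0.05 (edgeR adjusted p = 0.000262). Dnajc27, a small GTPase with a J domain, was at 86.1, 82.6, 65.1 and 65.4 CPM (-0.30 ± 0.05, edgeR adjusted p = 0.00559). Dnajc6, the neuronal auxilin that brings Hspa8 to clathrin coats, was at 106, 98.1, 89.7 and 79.4 CPM, again with no overlap (-0.20 ± 0.05, edgeR adjusted p = 0.0285). Cct6a was called as well (-0.27 ± 0.07, edgeR adjusted p = 0.0322), although its D1 BACHD and D2 WT values, 26.2 and 27.6 CPM, lie in the reverse order. By GENCODE M21 (GRCm38) these genes lie at chr19:58795750-58943654 (Hspa12a, minus strand), chr12:4082583-4110606 (Dnajc27, plus strand), chr4:101496648-101642799 (Dnajc6, plus strand) and chr5:129786998-129846371 (Cct6a, plus strand). In these pools fewer cells and less RNA per cell cannot be told apart.

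The number of members called was 9 with total counts as the scale, 2 with DESeq2 and 1 without the filter, where 2933, 1330 and 810 genes were called in all, against 2274 in the fit above. In fits with cell type as the only term it was 3 without D1 WT, 2 without D1 BACHD and 1 without either D2 library, with 1400, 1364, 821 and 887 genes called in all. Hspa12a was called in each of these fits. Dnajc27 was not called without D2 WT, without D2 BACHD or without the filter, but its log2 change was then -0.30, -0.31 and -0.30. Dnajc6 lost its call without each library in turn, by DESeq2 and without the filter, with log2 changes from -0.12 (without D2 BACHD) to -0.30 (without D2 WT). Cct6a lost its call in the same fits, and its log2 change was -0.04 without D1 WT, -0.09 without D2 BACHD, -0.47 without D1 BACHD and -0.47 without D2 WT.

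By the ratio rule 1 member, Hspa12a, was past 1.5 between D2 WT and D1 WT (log2 ratio -0.63, interval -0.70 to -0.57), downward as 6.43% of all genes were, and 0 between D2 BACHD and D1 BACHD (9.87%). In WT 39 members were higher in D2 and 32 lower (median 0.01), where 52.2% of all genes were lower, but with total counts as the scale 17 were higher and 54 lower. The same scale moved the median of all genes in that comparison from -0.01 to -0.08. In BACHD the split was 28 higher and 43 lower (49.9% of all genes), and 21 and 50 with total counts.

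**Figure D5:**
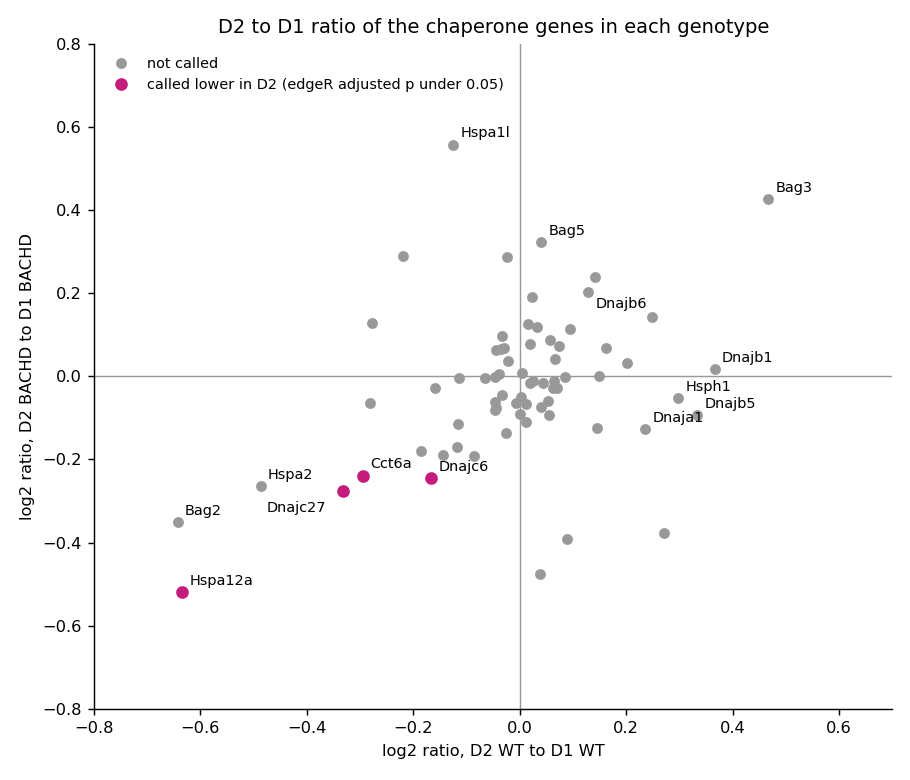
Log2 ratio of D2 to D1 in WT (x axis) and in BACHD (y axis) for the 71 members, with the 4 called lower in D2 in colour. Hspa12a is the lowest of the 71 in BACHD and, beside Bag2, among the lowest in WT, while Dnajb1, Dnajb5 and Hsph1 lie to the right of 0 in WT and near 0 in BACHD.

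Beyond the symbol families, 48 further co-chaperones and regulators were listed (the prefoldins, the HSP90 co-chaperones, heat shock factors and others), and 47 were tested. The genotype term called 0 of them, with 7 at an unadjusted p under 0.05 (0.440% and 13.4% of all genes), and the medians were -0.02 in D1 and -0.03 in D2 cells. The cell type term called 3 (17.0% of all genes), all lower in D2 cells (10.2%). Tomm70a, a mitochondrial import receptor that docks HSP70 and HSP90, was at 525, 466, 372 and 364 CPM, a log2 change of -0.36 ± 0.06 (edgeR adjusted p = 0.00335). Hsf4, a heat shock factor known best from the lens, was at 7.17, 8.13, 4.51 and 4.58 CPM (-0.68 ± 0.13, edgeR adjusted p = 0.0101). Its call was lost with DESeq2 (adjusted p = 0.114), without the filter and without D1 BACHD, D2 WT or D2 BACHD, with log2 changes of -0.58 to -0.69. Tomm70a was not called without the filter or without either D2 library, at -0.35 to -0.38. Cryab, a small heat shock protein that oligodendrocytes and astrocytes also make, was at 1.99, 4.79, 1.39 and 1.62 CPM. It was called (-1.02 ± 0.27, edgeR adjusted p = 0.0389), but 1 library carried the difference, since without D1 BACHD the log2 change was -0.33. DESeq2 did not call Cryab either (adjusted p = 0.219). It was also past the ratio of 1.5 in D1 BACHD against D1 WT (log2 ratio 1.27, interval 0.90 to 1.66). Summed oligodendrocyte markers were 322, 372, 330 and 394 CPM and astrocyte markers 150.5, 205, 195.6 and 194.5 CPM in the 4 libraries. Their part in the Cryab value was not tested.

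Reads that fit more than 1 gene limit some of these values. The median share of a member's 50-base stretches that also occur in another gene's annotated transcripts was 1.5%, and 49 of 71 members were under 5%. It was at least 20% for 11 members, among them Hspa1l, Hspa1a, Hspa1b, Hsp90aa1 (47.5%), Hspd1 (42.1%), Hspa8 (39.4%) and Dnaja1 (20.6%). How the authors assigned such reads is not given in the sources used here, so the levels of these genes are uncertain.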

How the data were processed

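RNA of the 4 sorted pools was read in pairs of 50 bases (design text of the series). CASAVA 1.8.2 appears in the submitters' processing notes. The authors deposited estimated counts and FPKM for 37620 Ensembl genes. Not given in the sources used here were the aligner, the counter, its strand use, the annotation and the build. The labels' protocols describe frozen tissue, while the design text describes sorted cells.

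Symbols were matched by identifier for 32897 genes, and coordinates come from GENCODE M21 (GRCm38). Of the deposited estimated counts 19.4% were not whole, and all were rounded. CPM were computed from library totals, and genes with at least 1 CPM in 2 libraries (13400) were scaled by TMM and fitted with edgeR 4.0.16 (R 4.3.3) with terms for cell type and genotype. That fit leaves 1 residual degree of freedom, so its p-values and SEs rest mostly on variance shared across genes (median 6.67 prior degrees of freedom). Adjusted p-values are Benjamini-Hochberg over all genes tested. Ratios of 2 libraries are TMM-scaled, with exact conditional binomial 95% intervals and counts under 3 set to 3. PCR copies of a molecule are counted more than 1 time, so intervals show counting error alone. FPKM rest on gene lengths the authors chose. Steps were tested on simulated data. The members and gene lists were chosen with earlier results of these data known. Named genes were the members past a rule, the 8 smallest genotype p-values, the 5 largest differences between cell types, the 3 highest of each family and the members of 2 lists (heat shock factor targets and polyglutamine suppressors). Of other co-chaperones those called or past the ratio were named, and Hsf1. Alternatives used DESeq2 1.42.0 and limma 3.58.1.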

Additional observations from a re-analysis of the deposited data

Results flagged for a closer look

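In 4 members the BACHD to WT ratio moved in opposite directions in the 2 cell types, with counting intervals off 0 in both. The difference of the log2 ratios (D2 minus D1) was -0.43 for Dnajb5, -0.35 for Hsph1, 0.13 for Dnajc7 and 0.11 for Bag6. Over all genes tested, 2.21% lay above 0 in D1 and below 0 in D2 cells and 2.46% the reverse, so 4 of 71 is near the background. These differences were not tested, since each group was 1 pool.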

How the results depend on the processing

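No paired analysis was possible because each group was 1 library. By genotype 0 members were called in edgeR, where 59 genes were called in all. With total-count scaling or at an adjusted p under 0.1 it was 1 (Cct6a, lower), where 143 and 142 genes were called. DESeq2 and a filter of 10 CPM gave 0, where 77 and 42 genes were called in all. No filter, genotype as the only term and both limma fits on FPKM also gave 0. Those fits called at most 1 gene in all, so their 0 cannot tell whether members differ. With a library left out 1 genotype was 1 pool, so no calls are given for those fits. By cell type 4 members were called, where 2274 genes were called in all. The count was 9 with total counts (2933 genes in all), 2 with DESeq2 (1330) and 1 with no filter (810). It was 2 with cell type as the only term (1449) and 8 at an adjusted p under 0.1 (6 lower, 2 higher, 3077 genes in all). With a library left out only the term tested could be fitted, and 1 cell type was then 1 pool. At a ratio of 2 no member was past it in any comparison of 2 libraries. With a filter of 10 CPM, or with FPKM plus 1, the count was 0 in D1 and 0 in D2 cells for BACHD against WT. Bag2, Hspa1a and Hspa1l, the members past the ratio, lie below that filter, and adding 1 shrinks ratios of such low values. Neither setting is therefore a check of these 3 genes. For D2 WT against D1 WT it was 2 with FPKM plus 0.1. The median of D2 WT against D1 WT, 0.01, was -0.06 with total counts, -0.05 with FPKM plus 0.1 and -0.05 with FPKM plus 1, while the other 3 medians stayed below 0 under each scale and filter. Leaving out Cct6a, which GENCODE M21 does not call protein-coding, was chosen after seeing the data and gave 0 and 3 calls. Low counts of Bag2, Bag3, Hspa1a and Hspa1l limit their ratios.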
